A study of Mus musculus with 8 samples.

Results

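Chromatin immunoprecipitation of Mgea5 and of Panx2 was compared gene by gene, through the broad peak lists that the authors called for each protein. A protein-coding gene of chromosomes 1 to 19 was counted as carrying a peak when a peak overlapped its body or 1 kb on either side by at least 1 bp. Of 20661 such genes, 238 carried a peak in both Mgea5 lists and in no Panx2 list (1.15% of genes), and 68 carried a peak in both Panx2 lists and in no Mgea5 list (0.329%). These 306 genes are called the Mgea5-only and the Panx2-only genes below. The names describe which lists hold a peak and nothing more, since the presence of a peak chose the genes.

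The study asked which proteins sit at the miR-9 locus, by ChIP-seq of 3 proteins. All groups were the same material, hippocampal neural progenitor cells in primary culture, taken from C57BL/6 males, with no other genotype or treatment in the labels. Fixation was in 1% formaldehyde over 10 minutes, and each of Mgea5, Panx2 and Polr1c had 2 libraries. The 2 input libraries were not analysed here. The animals' age, the antibodies and whether replicates came from separate cultures were not given in the sources used here, so the spread between replicates may be technical.

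Mgea5 (now Oga) is the enzyme that removes O-linked N-acetylglucosamine from nuclear and cytoplasmic proteins, transcription regulators among them. Panx2 is a member of the pannexin family of large-pore channel proteins and is expressed in the nervous system, and Polr1c is a subunit that RNA polymerase I and RNA polymerase III have in common. A broad peak list is made by joining nearby stretches of enriched reads, so at a lenient threshold it covers many positions of low enrichment.

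The lists differed in length before any gene was considered. On chromosomes 1 to 19, Mgea5 replicates 1 and 2 had 529967 and 516979 peaks, and Panx2 replicates 1 and 2 had 143578 and 471569. The peak names place Panx2 replicate 1 in another calling run than the other 3 lists, so replicate and run cannot be told apart for Panx2. Median fold enrichments were alike at 1.71, 1.71, 1.80 and 1.84 in the same order. Only 106, 106, 11 and 348 peaks had a q-value of 0.01 or less. Fold, p and q are the authors' values for each peak and were used only to describe peaks within a list.

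A peak was present in 91.2% and 87.8% of genes in the Mgea5 lists, and in 62.1% and 90.6% in the Panx2 lists. Panx2 replicate 1 was the lowest list, and Panx2 replicate 2 lay between the Mgea5 replicates. The mean was 89.5% ± 2.38 (SD, n = 2) for Mgea5 and 76.4% ± 20.2 (SD, n = 2) for Panx2. The difference of 13.1 percentage points was not larger than the spread between the Panx2 lists (two-sided exact permutation test, p = 0.667, where 0.333 is the smallest p that 2 lists against 2 allow). Leaving out Panx2 replicate 1 turned the difference to -1.15 points.

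Most genes with peaks of 1 protein also had a peak of the other, and most genes of any kind had a peak in each list. Of the 17549 genes with a peak in both Mgea5 lists, 97.9% had a peak in Panx2 replicate 2, against 90.6% of all genes. In Panx2 replicate 1 the share was 68.7%, against 62.1% of all genes, and 1.36% had a peak in neither list. Of the 12343 genes with a peak in both Panx2 lists, 98.6% had a peak in Mgea5 replicate 1, against 91.2% of all genes. In Mgea5 replicate 2 the share was 97.5%, against 87.8% of all genes, and 0.551% had a peak in neither list. A peak in all 4 lists was found in 11928 genes, and in all but Panx2 replicate 1 in 5249 genes. Of the patterns in which 2 lists had a peak and 2 had none, Mgea5 replicate 1 with Panx2 replicate 2 held 669 genes, more than the 238 of the Mgea5-only pattern. Mgea5 replicate 2 with Panx2 replicate 2 held 219 genes, and Mgea5 replicate 1 with Panx2 replicate 1 held 113 genes, more than the 68 of the Panx2-only pattern, while Mgea5 replicate 2 with Panx2 replicate 1 held 66. Without Panx2 replicate 2, 5487 genes counted as Mgea5-only, and without Mgea5 replicate 1 or 2, 310 or 173 genes counted as Panx2-only. Leaving out Mgea5 replicate 1, Mgea5 replicate 2 or Panx2 replicate 1 gave 443, 505 and 372 Mgea5-only genes. Leaving out Panx2 replicate 1 or 2 gave 317 and 247 Panx2-only genes.

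**Figure D1:**
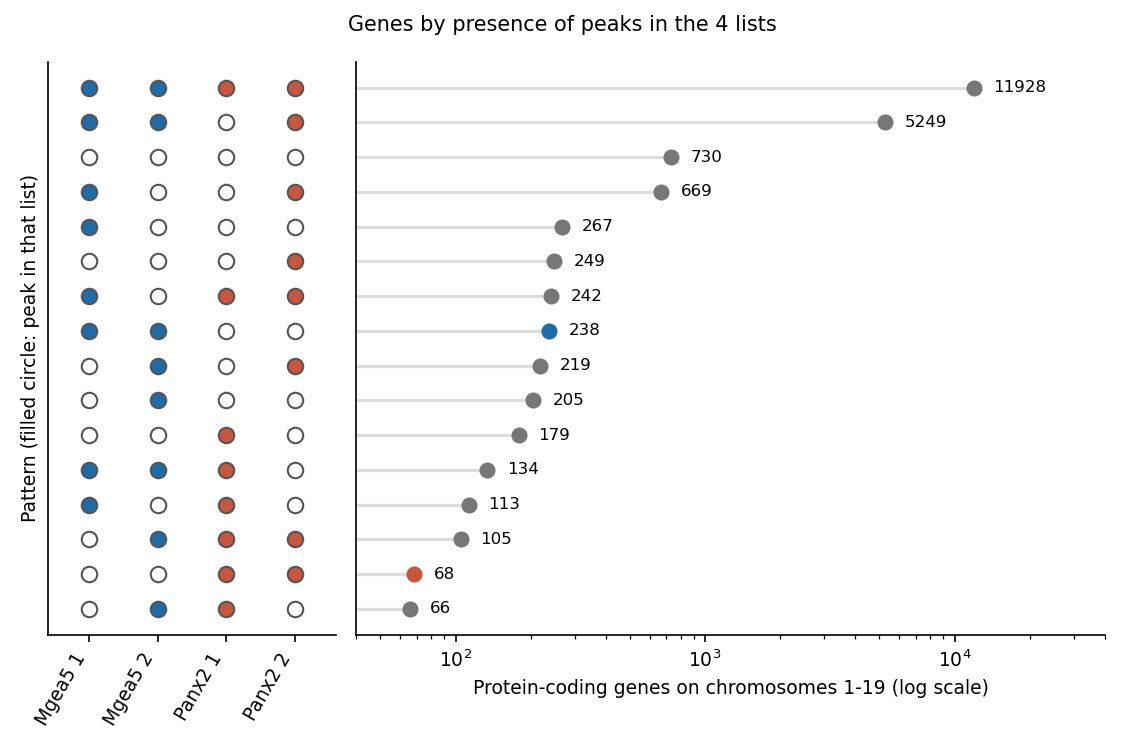
Number of protein-coding genes (log scale) for each of the 16 combinations of lists that held a peak in the gene or 1 kb around it. The 238 Mgea5-only and 68 Panx2-only genes stand among combinations that mix both proteins, of which Mgea5 replicate 1 with Panx2 replicate 2 held 669 genes.

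Many members entered with few and weak peaks. Exactly 1 peak in each list was found in 109 of the 238 Mgea5-only genes and in 49 of the 68 Panx2-only genes. Among all 7342 genes of at most 10 kb, 665 had exactly 1 peak in each Mgea5 list and 379 in each Panx2 list. The median of the highest fold in a gene was 1.75 and 1.75 in the Mgea5 replicates for Mgea5-only genes, and 1.82 and 1.89 in the Panx2 replicates for Panx2-only genes. For all genes of at most 10 kb with a peak it was 1.79 and 1.75 for Mgea5 and 1.81 and 2.01 for Panx2. The highest −log10 q was 0 in 231 and 227 of the 238 Mgea5-only genes, and in 68 and 46 of the 68 Panx2-only genes. Weak peaks were the rule in these lists, with a −log10 q of 0 in 97.4% and 97.7% of all Mgea5 peaks and in 99.9% and 63.8% of all Panx2 peaks. Only 1 member reached a q-value of 0.01 or less in any list, the histone gene H4c9 in Mgea5 replicate 2. In 31 of 238 Mgea5-only genes the highest fold in replicate 1 was the fold that list repeats most, 1.62, and in 21 of 68 Panx2-only genes it was the most repeated fold of Panx2 replicate 1, 1.76, which stood at 24.0% of that list's peaks.

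The genes just outside the rule that are named here were picked for many peaks of 1 protein. They had the highest smaller peak count of its 2 lists among genes with exactly 1 peak of the other protein. Gm46430 had 6 and 5 Mgea5 peaks and Cenpk, a kinetochore component, had 5 and 6, and each had 1 peak in Panx2 replicate 1. Ccr9, a chemokine receptor of gut-homing lymphocytes, had 5 and 6 Mgea5 peaks, Gm40892 had 5 and 5, and each had 1 peak in Panx2 replicate 2. On the other side, Nepn had 2 and 5 Panx2 peaks, Mlx, a partner of the glucose-responsive factor ChREBP, had 2 and 4, and Vmn2r102 had 3 and 2, all with 1 peak in Mgea5 replicate 1. Gm8126 had 2 and 3 Panx2 peaks and 1 in Mgea5 replicate 2. A single peak in 1 list therefore separated these genes from the members.

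The 4 sequences printed here are the 250 bases before the start of members, from the RefSeq promoter table on the mm10 coordinates. They were taken in order of fold from the genes named for the highest geometric mean fold. Genes without a matched promoter, or without a peak of both replicates over it, were passed over. The first is from the histone gene H4c9, which had the highest geometric mean fold in the Mgea5-only set. Its 300-base promoter holds 13 CG, against medians of 2 in that set and 14 in all genes. The other sequences have fewer CG, as most members did. The H4c9 stretch is chr13:22041363-22041612 and holds 11 CG, the Tmed6 stretch is chr8:107065645-107065894 with 3, and the Olfr1049 stretch is chr2:86255692-86255941 with 2, all read on the minus strand. The stretch before Gm28455, the Panx2-only gene with the highest geometric mean fold of both replicates, is chr7:39487111-39487360 on the plus strand and holds 4. Capitals mark CG dinucleotides.
H4c9: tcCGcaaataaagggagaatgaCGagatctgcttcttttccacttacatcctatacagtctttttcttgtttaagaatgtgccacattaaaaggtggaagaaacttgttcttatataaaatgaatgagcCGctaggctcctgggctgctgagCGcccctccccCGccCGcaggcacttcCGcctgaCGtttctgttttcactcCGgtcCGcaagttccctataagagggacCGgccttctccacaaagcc
Tmed6: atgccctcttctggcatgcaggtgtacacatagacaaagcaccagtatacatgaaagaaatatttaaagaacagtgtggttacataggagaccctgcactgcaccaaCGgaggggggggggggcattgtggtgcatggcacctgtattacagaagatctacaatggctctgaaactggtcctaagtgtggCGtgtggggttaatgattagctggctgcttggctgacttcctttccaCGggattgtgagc
Olfr1049: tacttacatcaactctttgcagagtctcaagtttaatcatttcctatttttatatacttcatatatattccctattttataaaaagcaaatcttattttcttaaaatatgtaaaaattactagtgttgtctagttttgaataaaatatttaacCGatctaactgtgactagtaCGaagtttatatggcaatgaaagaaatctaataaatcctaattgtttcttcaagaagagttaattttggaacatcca
Gm28455: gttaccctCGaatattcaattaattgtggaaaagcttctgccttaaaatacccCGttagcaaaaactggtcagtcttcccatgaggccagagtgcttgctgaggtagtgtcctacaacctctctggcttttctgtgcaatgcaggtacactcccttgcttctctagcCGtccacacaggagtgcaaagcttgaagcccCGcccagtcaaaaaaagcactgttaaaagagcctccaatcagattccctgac

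Histone, ribosomal, respiratory and proteasome genes gave few Mgea5-only genes, to be read against 1.15% of all genes and the share of their span class. Histone cluster genes had a median span of 498 bp, and 5.05% of genes of at most 1000 bp were Mgea5-only. Ribosomal protein genes had a median of 3206.5 bp, against 3.12% of genes of 2 to 5 kb. Mitochondrial ribosomal and respiratory genes had medians of 7690.5 and 7228 bp, against 1.44% of genes of 5000 to 10000 bp. Proteasome genes had a median of 12362.5 bp, against 0.481% of genes of 10000 to 20000 bp. H4c9 (chromosome 13, 22040960 to 22041362), which encodes replication-dependent histone H4, had 1 peak in each Mgea5 list, with folds of 2.32 and 2.69 and −log10 q of 0.562 and 2.62. The other histone H4 genes were H4c4, with 2 peaks in each list and highest folds of 1.66 and 1.81, and H4c3, with 1 peak in each list and folds of 1.90 and 1.77. These 3 were all the members among 68 histone cluster genes (4.41%), and no histone gene was Panx2-only. The near-identical coding sequences of H4 copies make their read assignment uncertain, because the handling of multi-mapping reads was not given in the sources used here. Of 80 ribosomal protein genes, 3 (3.75%) were Mgea5-only and none was Panx2-only. They were Rpl4 (2 and 4 peaks, highest folds 2.20 and 1.76), Rpl27 (2 and 3 peaks, 2.10 and 1.85) and Rpl22l1 (1 and 1 peak, 1.65 and 1.49). Mrpl32 of the mitochondrial ribosome, Cox8c of respiratory complex IV and the proteasome ATPase Psmc6 were the only Mgea5-only members of their lists of 78, 78 and 38 genes (1.28%, 1.28% and 2.63%).

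The Mgea5-only genes named for the most peaks or the highest folds were of several kinds. Serpinb2, plasminogen activator inhibitor 2, had 8 peaks in replicate 1 and 3 in replicate 2, with highest folds of 1.98 and 1.68. The interleukin-22 paralogue Iltifb, the epidermal growth factor receptor ligand Epgn, the stomach protein gene Gkn2 and the p24-family trafficking gene Tmed6 each had 3 peaks in both lists. F2rl2, a thrombin receptor of the PAR family, had 4 and 2 peaks. Mstn, which encodes the muscle growth inhibitor myostatin, had 1 and 4 peaks with highest folds of 1.87 and 2.19. The ubiquitin ligase gene Dtx3l had 1 and 5 peaks, with highest folds of 1.75 and 2.30. Trim10 (5 and 2 peaks), Pramel19 (4 and 2), Tmem190 (2 and 4) and 4933402N03Rik (3 and 5) were also among the genes with the most peaks. In each of these genes both Panx2 lists had 0 peaks, as the rule requires.

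Among Mgea5-only genes with known roles in the nervous system were 3 chosen after their values were seen. Nts, the precursor of the neuropeptide neurotensin, had 3 and 2 Mgea5 peaks. Cntf, a neurotrophic cytokine, had 1 and 2, and Mt3, a brain metallothionein, had 2 and 1. Ednrb, the endothelin receptor B gene, had 2 peaks in each list over a span of 29894 bp. C1qb, a complement gene used here as a microglial marker, had 4 and 1 peaks and was the only Mgea5-only gene among 10 microglial markers. None of the 18 neural progenitor, 14 neuronal, 10 astrocyte, 10 oligodendrocyte or 10 endothelial and mural markers was in either set. Presence of a marker in these lists is not its expression, so the labelled cell type was not tested by it.

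Further members came from other multigene families, whose counts stand beside shares of 1.15% and 0.329% of all genes. Defensin and epidermal genes had median spans of 1923.5 and 1640 bp, where 3.75% and 1.10% of genes of 1 to 2 kb were Mgea5-only and Panx2-only. Kallikrein, serpin and secretoglobin genes had a median of 6826 bp, against 1.44% and 0.288% of genes of 5 to 10 kb. Zfp genes had a median of 18013.5 bp, against 0.481% and 0.107% of genes of 10 to 20 kb. Of 70 defensin genes, which encode antimicrobial peptides, 8 were Mgea5-only (11.4%) and 2 were Panx2-only (Defa32 and Defb13, 2.86%). Of 129 kallikrein, serpin and secretoglobin genes, 5 were Mgea5-only (3.88%) and none Panx2-only. Of 33 late cornified envelope and small proline-rich genes of the epidermis, Lce1d, Lce1i and Lce1k were Mgea5-only (9.09%) and Sprr2f was Panx2-only (3.03%). Of 386 Zfp zinc finger genes, Zfp966, Zfp51, Zfp640, Zfp973 and Zfp954 were Mgea5-only. Their share of 1.30% is near that of all genes and above that of genes of 10 to 20 kb, and the difference was not tested. Zfp966 had the highest folds of these, 2.25 and 1.78 from 2 and 1 peaks. Families of near-identical copies, Zfp966 and its neighbours included, share the uncertainty given for the H4 genes.

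The Panx2-only gene with the most peaks in a single list was Slc22a28, the only member among 329 solute carrier genes (0.304%, against 0.329% of all genes). This gene of the organic anion transporter family had 7 and 2 Panx2 peaks with highest folds of 2.16 and 2.26, over the largest span of that set, 70025 bp. Gm28455, a predicted gene, had 3 peaks in each list with highest folds of 1.85 and 2.86. Cyp2c67 and Cyp2c40, of the Cyp2c family of cytochromes P450, each had 3 and 1 peaks, and the neutrophil collagenase gene Mmp8 also had 3 and 1. Htr2a, the serotonin receptor 2A gene, had 1 and 3 peaks with highest folds of 1.82 and 1.94 over 65986 bp. The neuropeptide Y receptor gene Npy6r, the 2'-5' oligoadenylate synthetase family gene Oas1h, and Prl5a1 of the placental prolactin family each had 1 and 3 peaks. Cdk4, the cyclin-dependent kinase of the G1 phase, had 1 peak in each list with folds of 1.97 and 1.79, and was the only member among 37 cell cycle genes. Panx2 replicate 2 held more peaks than replicate 1 in Npy6r, Oas1h and Prl5a1, and fewer in Slc22a28, Mmp8 and the Cyp2c genes.

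**Figure D2:**
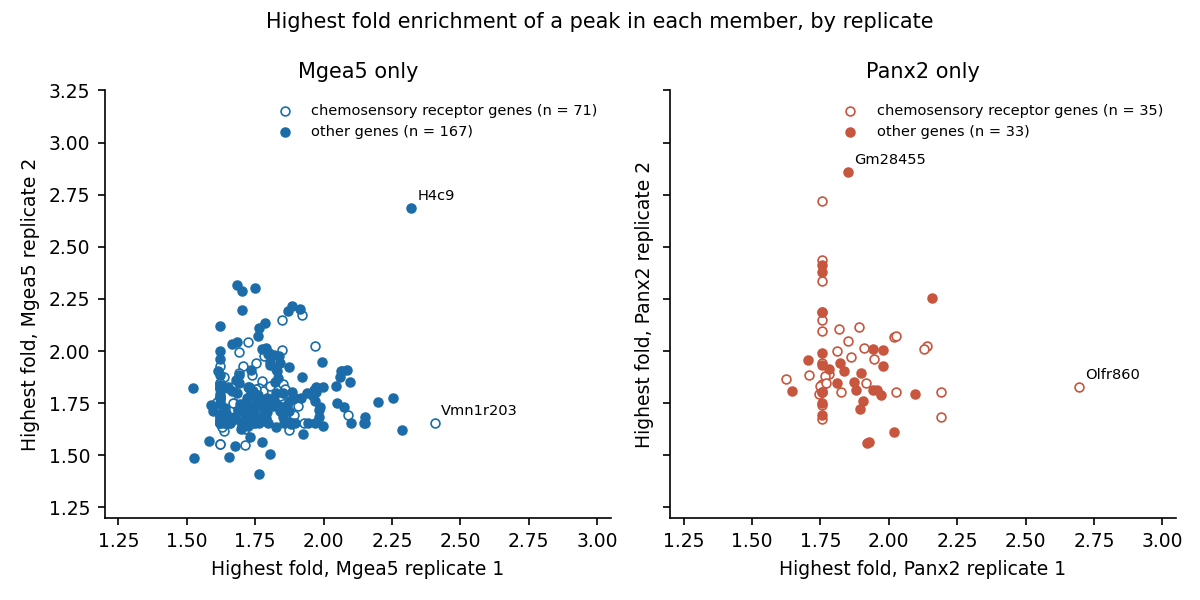
Highest fold enrichment of a peak in each member, replicate 1 (horizontal) against replicate 2 (vertical), for the 238 Mgea5-only genes on the left and the 68 Panx2-only genes on the right, with open circles for chemosensory receptor genes. H4c9 stands highest at 2.69 in Mgea5 replicate 2, and a column of Panx2-only genes stands at 1.76, the most repeated fold of Panx2 replicate 1.

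Chemosensory receptor genes were the largest group in both sets by the lists used. The odorant, pheromone, trace amine and taste receptor genes lie in clusters of related copies and are mostly silent outside sensory cells. The lists also hold genes of Mas-related receptors (Mrgpr), which are none of these 4 types. Together the listed genes made up 71 of 238 Mgea5-only genes (29.8%), with 52 olfactory, 14 vomeronasal and 5 other receptors. They made up 35 of 68 Panx2-only genes (51.5%), with 18 olfactory, 11 vomeronasal and 6 others. The 6 others included the Mas-related genes Mrgprx1, Mrgprb8 and Mrgprb3. Among all 20661 genes the listed genes were 1530 (7.41%). The share among all genes fell with the number of lists that held a peak, being 59.9% with 0 lists, 55.2% with 1, 25.1% with 2, 2.72% with 3 and 0.796% with 4. Patterns with a peak in 1 list of each protein differed in this share. With Panx2 replicate 1 it was 61.9% for Mgea5 replicate 1 and 69.7% for Mgea5 replicate 2. With Panx2 replicate 2 it was 10.2% and 25.1% in the same order. A high share was thus not particular to the sets. When only peaks with a −log10 p of at least 2 were used, the chemosensory share was 0.200% of the Mgea5-only genes and 4.76% of the Panx2-only genes, and with peaks cut to lists of equal length it was 2.30% and 8%. Without Panx2 replicate 2 the share of Mgea5-only genes was 2.66%, and without Mgea5 replicate 1 or 2 the share of Panx2-only genes was 21.6% or 28.3%.

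The receptor genes with the highest folds had 1 to 5 peaks. Olfr781 had 1 and 2 Mgea5 peaks with highest folds of 1.92 and 2.17. Olfr1049 had 1 in each list with folds of 1.97 and 2.03, and Olfr675 had 1 in each with 1.85 and 2.15. Vmn1r203, a vomeronasal receptor gene, had 1 in each with folds of 2.41 and 1.65, the highest fold of the set in replicate 1. Among the Panx2-only receptors, Vmn2r63 had 2 and 5 peaks with highest folds of 1.76 and 2.72. Olfr860 had 1 peak in each list with folds of 2.69 and 1.83, Olfr878 had folds of 2.13 and 2.01, Vmn2r47 had 2.14 and 2.02, and Vmn1r119 had 1.76 and 2.44. The high fold was thus in 1 replicate for Vmn1r203, Vmn2r63, Olfr860 and Vmn1r119, and in both for Olfr878 and Vmn2r47.

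Several families had members in both sets. The taste receptor genes Tas2r107, Tas2r108, Tas2r120 and Tas2r134 were Mgea5-only, and Tas2r122 and Tas2r123 were Panx2-only. Tas2r120 (chromosome 6, 132656957 to 132657844) and Tas2r122 (132710999 to 132711928) lie in the same receptor cluster. Of the trace amine receptors, Taar7b was Mgea5-only and Taar3 was Panx2-only. Of the major urinary protein genes, Mup2, Mup10 and Mup13 were Mgea5-only and Mup14 was Panx2-only. Reg3b and Reg3g stood against Reg2, and Oas1d against Oas1h. These family pairs, apart from the taste and trace amine receptors, were chosen after their values were seen.

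Genes of the proteins under study were in neither set. The Mgea5 gene, Oga, carried 12 and 17 Mgea5 peaks and 3 and 13 Panx2 peaks. Panx1 carried 11 and 8 Mgea5 peaks and 3 and 11 Panx2 peaks. The Panx2 gene itself carried 6 and 2 Mgea5 peaks and 0 and 5 Panx2 peaks, Panx3 carried 5 and 5 against 0 and 1, and Polr1c carried 2 and 3 against 0 and 3. In Panx2, Panx3 and Polr1c the list without a peak was Panx2 replicate 1. No gene of the O-GlcNAc and hexosamine list (14 genes), the pannexin and connexin list (21) or the RNA polymerase I and III list (15) was in either set. The same was so for microRNA processing (19), long synaptic (23), chemokine (39), Hox (39), Wnt (46) and Notch (31) genes. With 1.15% and 0.329% of all genes in the sets, lists of these sizes and the cell type lists are too short for an absence to be read as a result.

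The members were short. The median gene span was 2594 bp (249 to 38806) for Mgea5-only genes and 1914.5 bp (525 to 70025) for Panx2-only genes, against 17491 bp for all genes. Short spans were not particular to the sets. The patterns with a peak in 1 list of each protein had medians of 1555 to 3161 bp, and the 730 genes with no peak in the 4 lists had 972 bp. Spans of at most 10 kb were found in 215 of the 238 Mgea5-only genes (90.3%). The shortest members were Gm41515, Gm52266 and the keratin-associated gene Krtap19-4 on the Mgea5 side and Gm51483, Gm11555 and Gm13286 on the Panx2 side. The longest Mgea5-only genes were the mast cell chymase gene Cma2 (38806 bp), Ednrb and Serpinb2. The ratio of the sets' median spans, 1.35, kept no direction across settings, being 0.817 without the 1 kb flank.

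**Figure D3:**
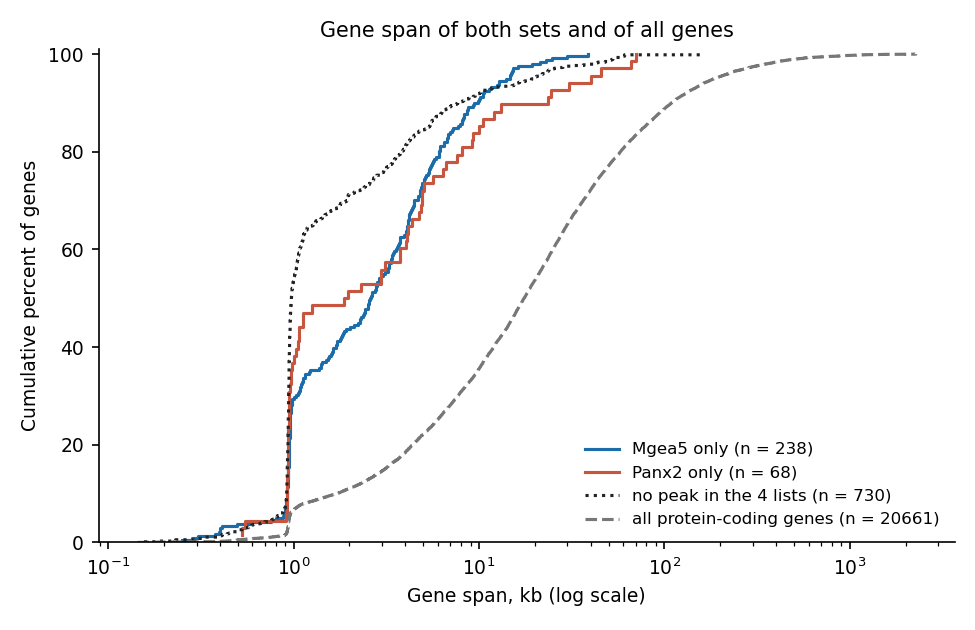
Cumulative percent of genes (vertical) by gene span in kb (log scale, horizontal) for both sets, for the 730 genes with no peak in the 4 lists (dotted) and for all 20661 genes. Both sets lie to the left of all genes, with medians of 2594 and 1914.5 bp against 17491 bp.

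Membership was more frequent in the shorter span classes, with 5.05% at 1 kb or less and 0% above 50 kb for Mgea5-only genes. Of 1385 genes of at most 1 kb, 5.05% were Mgea5-only and 1.81% Panx2-only, and of 4850 genes of 20 to 50 kb, 0.103% were in each set. At 1 kb or less, the Mgea5-only share was 5.22% of 996 chemosensory and 4.63% of 389 other genes, and the Panx2-only share was 2.01% and 1.29%. From 1 to 2 kb, the Mgea5-only share was 4.89% against 3.38%, and the Panx2-only share was 3.11% (7 of 225 genes) against 0.441% (3 of 681). From 2 to 5 kb, the Mgea5-only share was 5.62% against 3.02%, and the Panx2-only share was 3.37% (3 of 89 genes) against 0.503%. From 5 to 10 kb, the Mgea5-only share was 1.32% against 1.45%, and the Panx2-only share was 3.95% (3 of 76 genes) against 0.185%. From 10 to 20 kb, 2 of 57 chemosensory genes were Mgea5-only and 0 were Panx2-only, against 0.434% and 0.108% of other genes. The chemosensory classes above 1 kb rest on 0 to 11 members each, and the differences between gene classes were not tested.

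**Figure D4:**
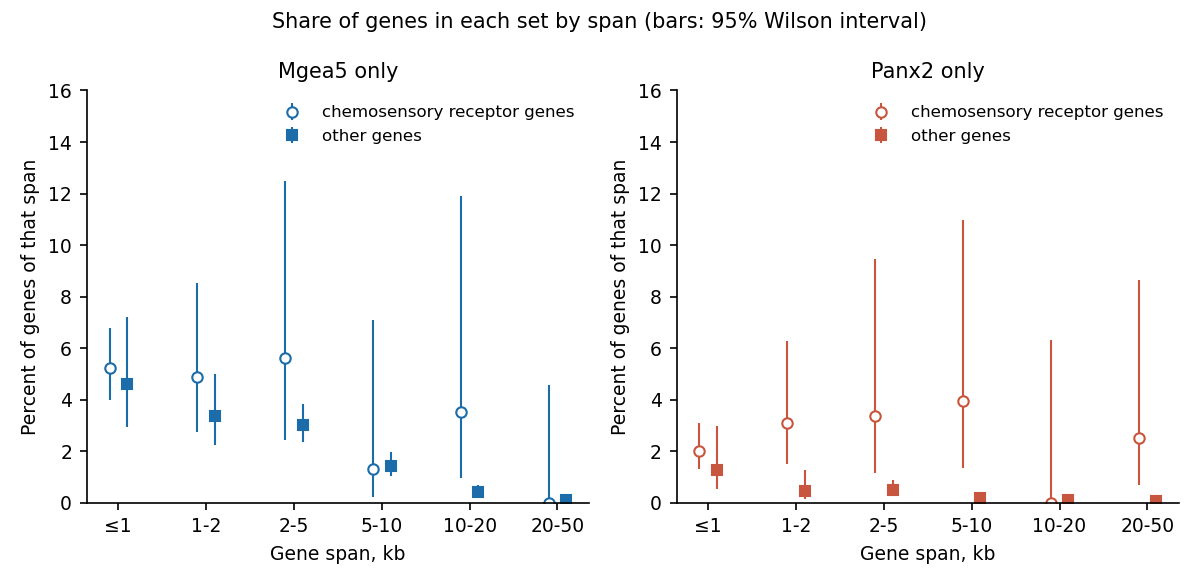
Percent of the genes of each span class (horizontal, kb) that were Mgea5-only (left) or Panx2-only (right), for chemosensory receptor genes (open circles) and other genes (squares). Bars are 95% Wilson intervals over genes, which cover counting only, and the class over 50 kb is not drawn. For other genes the Mgea5-only share falls from 4.63% at 1 kb or less to 1.45% at 5 to 10 kb.

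The regions around the members held peaks of both proteins. Within 100 kb of the gene on either side, outside the window of the rule, Mgea5-only genes had a median of 33 and 31 Mgea5 peaks and 12 and 28 Panx2 peaks. Panx2-only genes had medians of 24.5 and 18 Mgea5 peaks and 12 and 22.5 Panx2 peaks. All genes had medians of 55 and 52 Mgea5 peaks and 11 and 53 Panx2 peaks. Both sets were thus below all genes in both Mgea5 lists and in Panx2 replicate 2, and at the same level as all genes in Panx2 replicate 1. Chemosensory genes as a whole showed the same order, with medians of 24 and 18 against 56 and 53 in other genes for Mgea5, 18 against 54 for Panx2 replicate 2, and 12 against 11 for Panx2 replicate 1. The latter list was thus the only 1 of the 4 that was not sparser around chemosensory genes.

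**Figure D5:**
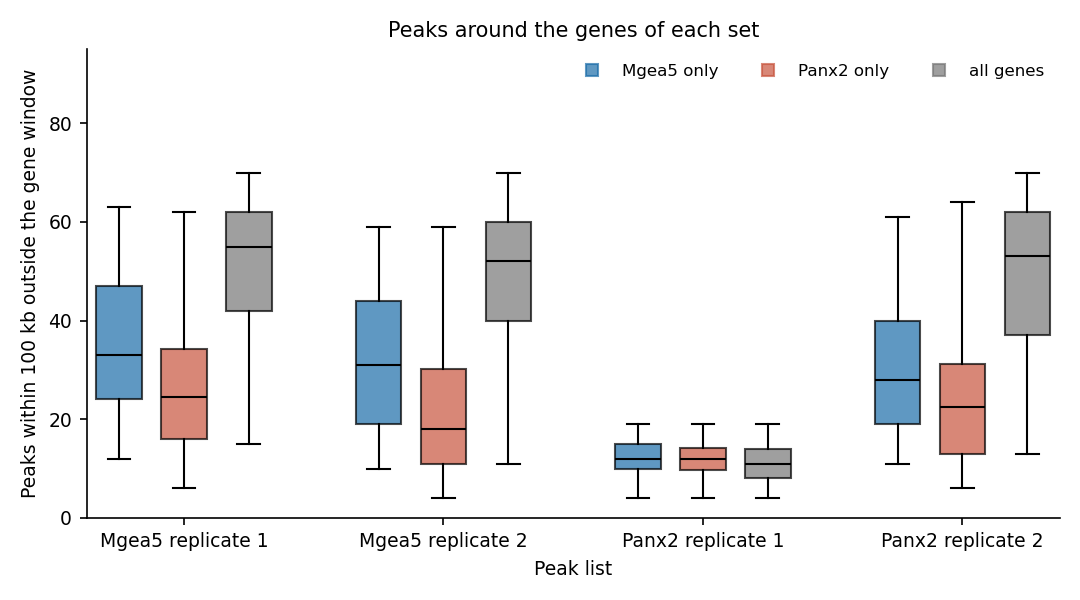
Number of peaks within 100 kb of a gene, outside the gene and its 1 kb flanks, in each of the 4 lists, for both sets and all genes (line, median; box, quartiles; whiskers, percentiles 5 and 95). Medians around all genes are 55, 52 and 53 in the Mgea5 lists and Panx2 replicate 2 and fall to 33, 31 and 28 around Mgea5-only genes, while Panx2 replicate 1 stays at 11 to 12.

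Peaks of the other protein stood close to most members. The nearest Panx2 peak of either list lay at a median of 1362 bp from the edge of the 1 kb flank of an Mgea5-only gene, within 5 kb of it in 208 of the 238 (87.4%), and farthest for Cma2 at 19542 bp. The nearest Mgea5 peak of either list lay at a median of 1520 bp from that edge of a Panx2-only gene, within 5 kb of it in 53 of the 68 (77.9%), and farthest for Cyp2c40 at 48078 bp. These distances were not taken for all genes, so they are not read as a trait of the members. Every Mgea5-only gene had a Panx2 replicate 2 peak within 100 kb, and every Panx2-only gene had a peak of both Mgea5 lists. Most genes did, as 118 of all 20661 genes had no such peak of Panx2 replicate 2. For Mgea5 replicates 1 and 2, 118 and 121 genes had none.

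Replicate peaks within a member often did not coincide. A peak of replicate 1 overlapped a peak of replicate 2 in 108 of 238 Mgea5-only genes (45.4%) and in 16 of 68 Panx2-only genes (23.5%). Among members with 1 peak in each list the overlap was 35 of 109 (32.1%) for Mgea5 and 10 of 49 (20.4%) for Panx2. All genes with 1 peak in each list of a protein gave 35.6% of 739 and 24.6% of 456.

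The members' promoters had few CG dinucleotides. Promoter sequences matched 198 Mgea5-only and 57 Panx2-only genes and 16456 of all genes (79.6%), so the shares are over matched genes only. The median number of CG in 300 bases was 2 in each set and 14 in all genes. At least 10 CG were found in 18 of 198 Mgea5-only promoters (9.09%), in 8 of 57 Panx2-only promoters (14%) and in 58.6% of all promoters. Among genes of at most 10 kb that were not chemosensory, the shares were 12.9%, 31.6% and 50.1%. The Mgea5-only promoters with at least 10 CG included H4c9, H4c3, Rpl4, Rpl27, Rpl22l1, Mrpl32, Psmc6, Dtx3l, Ednrb and the translation elongation factor gene Eef1a1. Of these, H4c9, H4c3, Rpl4 and Rpl27 were below the median of 14 in all genes. The Panx2-only promoters with at least 10 CG included Cdk4, the kinetochore gene Cenpx, the mitochondrial cristae gene Micos13 and the endoplasmic reticulum chaperone gene Calr.

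The letters TATAAA on the gene's strand, within 50 bases before the start, were found in 23 Mgea5-only promoters (11.6%) and 6 Panx2-only promoters (10.5%), against 3.63% of all promoters and 7.02% of promoters of genes of at most 10 kb. A peak of both replicates lay over the 300-base promoter in 20 of the 198 Mgea5-only genes (10.1%), against 13.4% of all genes for Mgea5. It did so in 2 of the 57 Panx2-only genes (3.51%), against 1.56% of all genes for Panx2. The rule gives every member a peak of both replicates in its window, which 84.9% of all genes had for Mgea5 and 59.7% for Panx2. These promoter shares are therefore not compared on equal terms.

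Polr1c peaks, which the rule did not use, were rare at the members. Polr1c replicate 1 had peaks in 0 of the 238 and 0 of the 68 genes, against 1.57% of all genes and 0.545% of genes of at most 10 kb. Polr1c replicate 2 had peaks in 7 Mgea5-only genes (2.94%) and in 1 Panx2-only gene (1.47%), against 44.7% of all genes and 17.6% of genes of at most 10 kb. The share was 1.63% of all chemosensory genes and 2.82% of genes of at most 1 kb, where 1 of 70 Mgea5-only and 1 of 25 Panx2-only genes had a peak. From 1 to 2 kb it was 11.7%, against 3 of 34 and 0 of 10. From 2 to 5 kb it was 19.2%, against 3 of 71 and 0 of 14. From 5 to 10 kb it was 25.7%, against 0 of 40 and 0 of 8. The 7 were Gm4981, Gm10272, Sppl2c, Cd79b, Lce1i, Ppbp and Defb15, and the Panx2-only gene was Olfr55. The difference between the sets, 1.47 percentage points, turned to -1.39 without the 1 kb flank.

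Mgea5-only genes lay on 19 chromosomes and Panx2-only genes on 18. Chromosome 7, which holds large receptor clusters, had 39 Mgea5-only genes (16.4%) and 14 Panx2-only genes (20.6%) against 9.83% of all genes. Chromosome 13 had 28 Mgea5-only genes (11.8%) against 4.01% of all genes. The 238 Mgea5-only genes stood at 237 loci and the 68 Panx2-only genes at 68. Loci counted apart can be neighbours in the same gene cluster, so they are not independent. Lce1d, Lce1i and Lce1k, for example, were counted apart and all lie between 92685499 and 92807891 on chromosome 3. Another coding gene shared the window in 33 (13.9%) and 7 (10.3%) of the members, against 38.3% of all genes.

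A stricter peak threshold selected other genes. With a −log10 p of at least 2, 499 genes were Mgea5-only (2.42% of genes) and 21 Panx2-only (0.102%). Of the members, 3 Mgea5-only genes (H4c3, H4c9 and Rpl4) and no Panx2-only gene were among them. These sets had median spans of 22191 and 48107 bp and median promoter CG counts of 19 and 11, and 47.3% and 61.9% carried a Polr1c replicate 2 peak. The highest folds were at the cleavage and polyadenylation gene Cpsf1 on the Mgea5 side and at the nuclear receptor gene Nr5a1 on the Panx2 side. With all lists cut to the 143578 peaks of the shortest, 391 genes were Mgea5-only (1.89%) and 475 Panx2-only (2.3%), and 37 and 25 of them were members. In that setting 14 of 68 histone cluster genes were Mgea5-only and 1 was Panx2-only. Other lists were closer, with 6 and 5 of 80 ribosomal protein genes, 9 and 5 of 386 Zfp genes and 4 and 3 of 329 solute carrier genes. These differences were not tested. With a −log10 q of at least 2, 57 genes were Mgea5-only (0.276%), none was Panx2-only and no member was among them.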

How the data were processed

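Per the submitters' processing notes, the tools were MACS3 3.0.0a5, Bowtie2 2.3.5 and Trim Galore, and the build was mm10. Control, cut-offs, read depth and filters on duplicate or multi-mapping reads were not given in the sources used here. Each replicate has its own list. The deposited lists give every peak's fold enrichment, a ratio, with its −log10 p and its −log10 q. From these, peaks were counted per protein-coding gene of the RefSeq table (GRCm38.p6, the coordinates of mm10), in the body and 1 kb on either side, with an overlap of at least 1 bp, by code tested on simulated lists (Python 3.11.15, numpy 2.4.6, pandas 2.3.3, scipy 1.17.1). Promoters are 250 bases before to 50 after the start in RefSeq. The members and gene lists were chosen with earlier results of these data known.

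Named genes are, in each set, the 12 with the highest smaller peak count of both lists, the 8 with the highest geometric mean fold, the 3 longest and 3 shortest, all members of a gene list with up to 6 in the set (otherwise the 3 of highest fold), and the 4 just outside the rule per side; others are said to be chosen after their values were seen, and genes named for their promoter, Polr1c peak or a stricter threshold are of that kind. A gene that met the rule is not reported here. The 33 gene lists count autosomal genes only, and 14 had no member in either set. Sets are described by counts beside all genes. Only the share of genes with a peak was tested, by an exact permutation over the 4 lists. Alternatives were no flank or 5 kb, peak midpoints, stricter p or q, lists of equal length, adding X and Y, leaving out chromosome 14 beyond 45 Mb or genes with shared windows, and leaving out each list. Chemosensory shares under these were added after seeing the data.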

Additional observations from a re-analysis of the deposited data

How the results depend on the processing

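The 238 Mgea5-only genes became 155 with a 5 kb flank, 499 with a −log10 p of at least 2, 57 with a −log10 q of at least 2, 391 with lists of equal length and 372 to 5487 with 1 list left out. The 68 Panx2-only genes became 21, 0 and 475 under the p, q and equal-length settings and 173 to 317 with 1 list left out. The −log10 q setting left no Panx2-only gene, so comparisons between the sets could not be computed there. The span ratio of 1.35 was 0.817 with no flank, 0.600 with 5 kb, 0.890 with midpoints, 0.461 with the p threshold, 0.891 at equal length, 2.25 without shared windows and 0.266 to 8.42 with 1 list left out. The Polr1c replicate 2 difference of 1.47 points was -1.39 with no flank, -1.13 with midpoints, -14.6 with the p threshold and -13.0 to 33.0 with 1 list left out. The median CG difference of 0 was -1 with 5 kb, 8 with the p threshold, 1 at equal length and -2 to 13 with 1 list left out. The chemosensory share of Mgea5-only genes, 29.8%, was 16.9% with no flank, 56.8% with 5 kb, 0.200%, 0% and 2.30% under the p, q and equal-length settings and 2.66% to 44.6% with 1 list left out. The Panx2-only share, 51.5%, was 33.3%, 65.6%, 4.76% (p) and 8% (equal length) in that order, and 21.6% to 65.2%. The difference in genes with a peak, 13.1 points, was -0.111 at equal length and -1.15 to 27.4 with 1 list left out. With the replicate number as a block it was 13.1, from 29.1 in replicate 1 and -2.83 in replicate 2 (exact sign-flip p = 1, where 0.5 is the smallest possible). In each case the cause was not tested.

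The rule is a presence or absence at a lenient threshold, 109 of 238 and 49 of 68 members rest on 1 peak in each list, and the lists differ in length. Read depth is unknown, and absence of a peak cannot be told apart from too few reads. With 2 lists per protein, 0.333 is the smallest p.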
